A study of Mus musculus with 15 samples.

Results

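Cytosolic ribosomal proteins are the protein parts of the ribosome that reads nuclear-encoded mRNA. On the arrays used here they were taken as every non-control probe whose gene name in the scanner files starts with Rpl or Rps, leaving out the Rps6k kinases. The rule used gene names only and gave 137 of the 41174 non-control probes, for 82 of 27962 gene names. Of these, 72 probes belong to 45 genes of the large subunit, 56 to 31 genes of the small subunit, 7 to ribosomal protein paralogs and 2 to Rps19bp1, which is not a ribosomal protein but encodes a protein that binds one. A total of 41 genes had more than 1 probe, so probes of a gene share their transcript and are not replicates.

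The large subunit joins amino acids into protein and the small subunit reads the mRNA, and cells make the parts in matched amounts. Ribosomal protein mRNAs of vertebrates begin with a terminal oligopyrimidine tract, a C followed by a run of pyrimidines, which places their translation under control of mTOR signalling. In colorectal adenomas, where loss of Apc leaves the Wnt pathway active, Myc is a Wnt target that drives genes of ribosome production.

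Gene expression was measured on 15 single-colour arrays of RNA from laser-microdissected colon cells of male Apc+/Min-FCCC mice on the C57BL/6J background, examined by colonoscopy at 6 to 8 weeks of age. All of these mice carry 1 mutant copy of Apc. Treated adenoma cells (4 arrays) came from tumor-bearing mice whose chow held both sulindac (300 ppm), which inhibits cyclooxygenases, and atorvastatin (100 ppm), a statin that inhibits cholesterol synthesis, for 7 days. Untreated adenoma cells (3 arrays) came from tumor-bearing mice on plain chow. Normal epithelial cells came from tumor-bearing mice (4 arrays) and from tumor-free mice (4 arrays), labelled in both cases as given atorvastatin alone. The protocol states that mice with tumors got either no drug or both drugs, which differs from these labels, and the labels were followed here. Atorvastatin was thus in 3 of the 4 groups, and sulindac in treated adenoma alone. Any comparison of adenoma with epithelium therefore sets tissue and drug together, and they cannot be told apart. The drug is atorvastatin for untreated adenoma and sulindac for treated adenoma.

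Arrays of a group were labelled as separate biological replicates, but 6 pairs of arrays within groups differed by less than the spot noise (SD of the log2 difference 0.0857 to 0.170, against a noise of 0.188 to 0.218), while other pairs within groups differed by 0.595 to 1.12. Such arrays were counted as 1 sample, which left 2 samples of treated adenoma, 2 of untreated adenoma, 3 of tumor-bearing epithelium and 3 of tumor-free epithelium. One pair across groups, tumor-free array 2 and tumor-bearing array 2, differed by 0.183 against a noise of 0.178, and both were kept in their groups. Between 56.5% and 75.5% of spots were well above background on an array. Of 7 Wnt-target genes known to be high in adenoma, 7 were well above background on every treated adenoma array. On every untreated adenoma array 6 were so, and 7 on every array of each epithelium group, so detection alone did not separate the tissues. The probes of these genes had a median difference of 3.29 (log2) between all adenoma and all epithelium. Of 9 tested probes 7 were called higher and 0 lower, beside 2089 higher and 2616 lower of 27135 in all. The 10 markers of normal colon epithelium were well above background on every array of all 4 groups. Cells of other types were present in the signal. Summed goblet cell markers stood at 5.64 to 6.03 in treated adenoma, 6.33 to 6.95 in untreated adenoma, 8.02 to 8.28 in tumor-bearing epithelium and 7.76 to 7.95 in tumor-free epithelium (log2 relative to each array's 75th percentile). Summed smooth muscle markers stood at 4.63 to 4.97 in treated adenoma, 3.91 to 4.37 in untreated adenoma, 5.62 to 5.89 in tumor-bearing epithelium and 4.97 to 5.84 in tumor-free epithelium. All 5 goblet and all 5 fibroblast genes were well above background on every array of each group. Of 6 leukocyte genes 4 were so in treated adenoma and 5 in each other group, Cd79a being left out in all. The part of these cells in the results was not tested, and fewer cells of a type and less RNA per cell cannot be told apart in such samples.

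The probes are 60 bases long and lie at different places in the transcripts. The following set shows the probes that are referred to by position. In the first pair the capitals mark the start codon, so that these probes lie at the beginning of the coding sequence. Rpsa encodes a small subunit protein also known as the laminin receptor, and Rpl29 a large subunit protein.
Rpsa A_51_P439092 (chr9:119824366-119824425, mm7, plus strand): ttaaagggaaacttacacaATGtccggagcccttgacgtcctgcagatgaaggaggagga
Rpl29 A_51_P400137 (chr9:106159086-106159768, mm7, plus strand): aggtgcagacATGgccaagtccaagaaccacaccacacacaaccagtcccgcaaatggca
The Rpl29 probe covers 683 bases of the genome with 60 bases of sequence, so it crosses an intron. Rpl7, a large subunit protein gene on the minus strand, had 3 probes, given here from upstream to downstream in the transcript.
Rpl7 A_51_P496480 (chr1:16292191-16292250, mm7): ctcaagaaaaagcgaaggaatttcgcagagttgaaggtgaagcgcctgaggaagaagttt
Rpl7 A_52_P346326 (chr1:16291470-16291867, mm7): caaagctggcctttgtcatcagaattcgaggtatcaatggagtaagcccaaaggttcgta
Rpl7 A_52_P455580 (chr1:16290456-16290515, mm7): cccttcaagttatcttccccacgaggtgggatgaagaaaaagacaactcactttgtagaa
Rpl7a, another large subunit gene, lies on the plus strand, with its upstream probe first. Rps3, a small subunit protein at the entry of the mRNA channel, lies on the minus strand and its probe below is the upstream one.
Rpl7a A_51_P359862 (chr2:26918784-26918843, mm7): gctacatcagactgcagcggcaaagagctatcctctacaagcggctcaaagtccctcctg
Rpl7a A_52_P436206 (chr2:26920485-26920544, mm7): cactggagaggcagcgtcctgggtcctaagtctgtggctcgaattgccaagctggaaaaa
Rps3 A_52_P768 (chr7:95513146-95513420, mm7): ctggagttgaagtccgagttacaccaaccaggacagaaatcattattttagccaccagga
The probe named Rplp0 was designed on another record than the RefSeq mRNA of that gene, and the array design places it on a chromosome other than the one where RefSeq places Rplp0.
Rplp0 A_51_P344103 (chr8:101459316-101459375, mm7, minus strand): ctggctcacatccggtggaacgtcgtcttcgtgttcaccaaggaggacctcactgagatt

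The signals of this family ran into the upper end of the scanner. Of the 137 probes, 128 were well above background on all 15 arrays. On 66 of them (48.2%) the scanner recorded saturated pixels on at least 1 array, and on 12 on every array. Among all 41174 probes only 322 (0.782%) had a saturated pixel on any array, and ribosomal protein probes made up 20.5% of these. None of the ribosomal protein probes carried the scanner file's own saturation flag, which follows a stricter criterion. The 12 probes with saturated pixels on every array include those of Rplp1 and Rplp2, the acidic stalk proteins that recruit elongation factors, and of Rpl11, which holds Mdm2 when ribosome assembly fails.

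The number of ribosomal protein probes with at least 50% of their pixels saturated was 19, 26, 13 and 14 on the 4 treated adenoma arrays and 36, 46 and 36 on the 3 untreated adenoma arrays. It was 33, 19, 38 and 26 on the tumor-bearing and 13, 36, 34 and 35 on the tumor-free epithelium arrays. The treated adenoma arrays thus all had fewer than the untreated ones, and the epithelium arrays overlapped with both. The scanner limit differed little between arrays, at 541364 to 562923 intensity units.

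A probe near the limit on all arrays can show little difference of its own, and its value then largely follows the scaling of the array. Rplp1 had 6.17, 6.49, 6.73 and 6.96 in treated adenoma, 6.12, 5.77 and 6.15 in untreated adenoma, 6.88, 6.68, 6.62 and 6.13 in tumor-bearing epithelium and 6.63, 6.56, 6.26 and 6.08 in tumor-free epithelium (log2 relative to the array's 75th percentile, on which all levels below are given). The arrays of all 4 groups overlapped. Between treated and untreated adenoma Rplp1 differed by 0.40 ± 0.46 and Rplp2 by 0.33 ± 0.47 (log2, SE). Over the 12 probes the difference between treated and untreated adenoma lay between 0.28 and 0.40 (log2). The 8 other probes of the array with saturated pixels on every array gave 0.31 to 0.40 in the same comparison. No difference is therefore read from these 12 probes, and differences of the 54 probes with saturated pixels on some arrays may be too small. Rpl5, which with Rpl11 and 5S RNA forms the particle that restrains Mdm2, belongs to these 54, as do Rps27a, a fusion of ubiquitin and a small subunit protein, Rps27 and the 3 probes of Rpl36a.

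**Figure D1:**
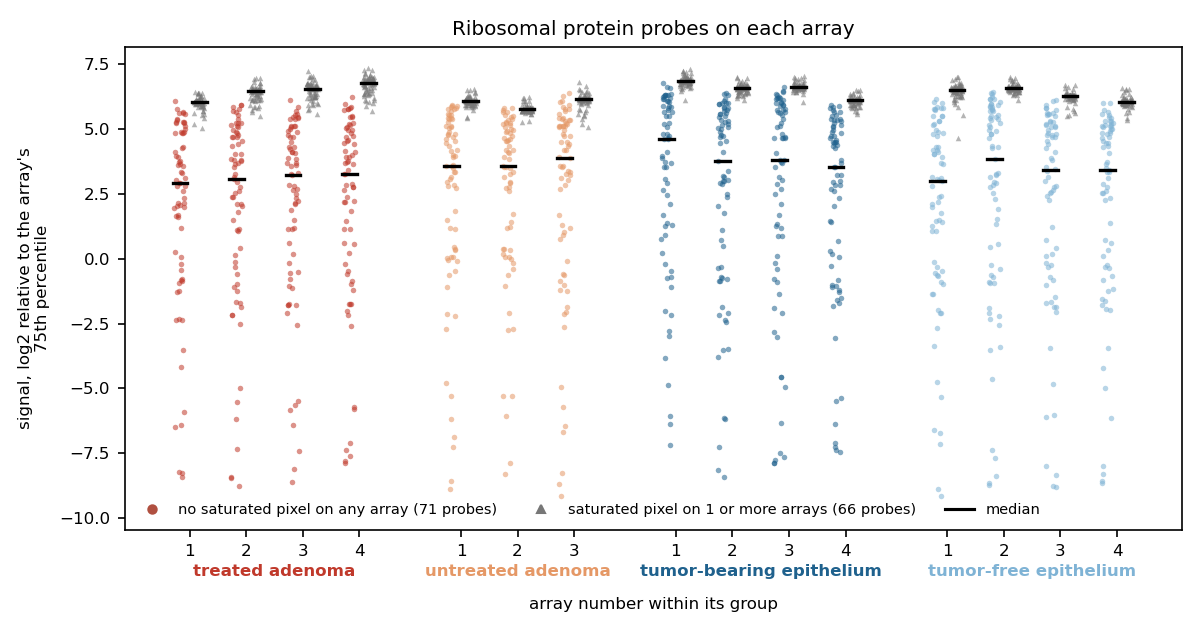
Signal of the 137 ribosomal protein probes on each of the 15 arrays (vertical axis, log2 relative to the array's 75th percentile), with the groups side by side and black bars for medians. The 66 probes with a saturated pixel on 1 or more arrays (grey triangles) lie in a narrow band at the top of each array, while the 71 probes without one (coloured circles) spread over the range below.

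Against this background, 133 of the 137 probes could be tested in at least 1 comparison. Left out were Rpl3l (A_51_P243123), the muscle paralog of Rpl3, and 1 clone-based probe each of Rps19, Rps2 and Rpl35a, which were not well above background on every array of any group. No ribosomal protein probe passed an adjusted p of 0.05 (limma, Benjamini-Hochberg over all tested probes) in any of the 5 comparisons described next.

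Treated against untreated adenoma asks what both drugs changed within the tumor. None of 132 ribosomal protein probes passed, beside 0.138% of all 25316 probes tested (22 higher, 13 lower), and 4 had an unadjusted p under 0.05, beside 11.2% of all probes. The median of all tested probes was 0.01 (log2). That of the 71 probes without saturated pixels was -0.36, with 52 of 66 tested probes lower in treated adenoma. This median stayed between -0.43 and -0.35 under the 6 scalings tried, and it was -0.46 within each of the 2 scan days that held both groups. As the median level on an array, the same probes had 3.06 ± 0.20 in treated adenoma and 3.73 ± 0.24 in untreated adenoma (SD, n = 2 each). The 54 probes with saturated pixels on some arrays had a median difference of the opposite sign, at 0.26, with 47 of 54 above 0. The unadjusted 95% interval of a single probe's difference reached a median of 1.07 to either side, and of 1.24 for probes without saturated pixels. For a typical probe, smaller differences could thus not be told from 0. After adjustment larger differences also went uncalled, down to -2.39.

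The 3 lowest differences by moderated t were those of Rplp0, Rps3 and Rpl7l1, and the Rps3 and Rpl7l1 probes are the upstream ones of their genes. Here and below, probes named by their t were picked for it, so lack of overlap between groups is no separate support. Near-identical arrays among the listed values are 1 sample. Rplp0, named for the stalk base protein, had 2.17, 2.60, 2.83 and 2.77 in treated adenoma, against 4.37, 4.19 and 5.40 in untreated adenoma. These groups did not overlap, and the difference was -2.39 ± 0.75 (log2, SE), with an adjusted p of 0.329 in limma. In tumor-bearing epithelium it had 4.12, 4.52, 4.08 and 4.37, and in tumor-free epithelium 2.40, 4.31, 4.70 and 4.81, so that tumor-free array 1 stood with the treated adenomas. Rps3 (A_52_P768) had 3.98, 3.82, 3.88 and 3.92 in treated adenoma and 5.12, 4.99 and 5.43 in untreated adenoma, a difference of -1.32 ± 0.49 (adjusted p = 0.380 in limma). Rpl7l1 (A_52_P343343) had -1.29, -0.31, -0.51 and -0.46 in treated adenoma, against 0.04, 0.06 and 0.93 in untreated adenoma (difference -1.35 ± 0.53), again without overlap.

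The 3 highest by moderated t were Rps27 (A_51_P511199) at 0.79 ± 0.48, the clone-based Rps13 probe (A_52_P646112) at 0.82 ± 0.53 and Rpl27a (A_51_P132459) at 0.77 ± 0.59, with adjusted p between 0.582 and 0.671 in limma. Rps13 had 1.99, 2.10, 2.21 and 2.21 in treated adenoma, against 1.20, 1.22 and 1.30 in untreated adenoma, without overlap. Rps27 had saturated pixels on 10 arrays. Rpl27a in treated adenoma (3.69 to 4.28) overlapped with untreated adenoma (2.69 to 3.91).

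**Figure D2:**
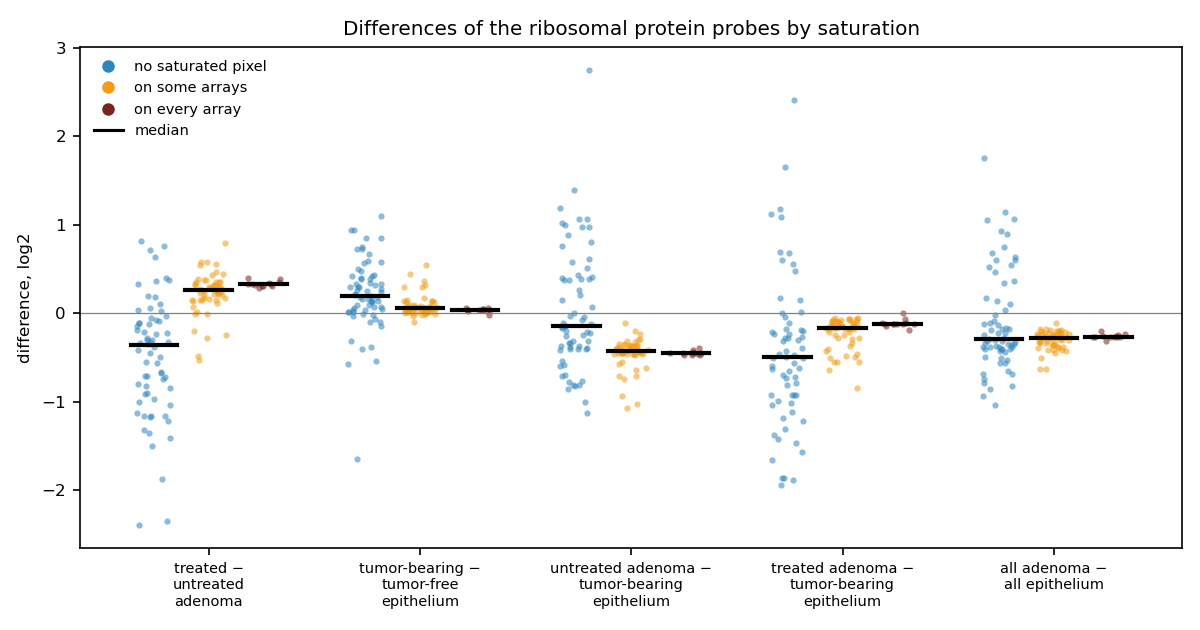
Difference of each tested ribosomal protein probe (vertical axis, log2) in the 5 comparisons, split by whether the probe had saturated pixels on no array, on some or on every array; black bars are medians. The 12 probes saturated on every array gather near a single value in each comparison, near 0.3 for treated minus untreated adenoma, whereas probes without saturated pixels reach from -2.39 to 0.82 there.

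Probes of a single gene gave different answers along the transcript. Rpl7's upstream probe had 2.81, 1.08, 1.15 and 0.57 in treated adenoma, against 3.35, 3.29 and 3.25 in untreated adenoma. Its middle probe had 4.88, 4.03, 4.12 and 4.14, against 5.39, 5.24 and 5.31, and its downstream probe, with saturated pixels on 1 array, had 5.90, 6.30, 6.43 and 6.69, against 5.94, 5.68 and 6.01. The differences were -1.41 ± 0.66, -0.83 ± 0.45 and 0.27 ± 0.48 from upstream to downstream. At the upstream probe all treated arrays lay below all untreated ones, and at the downstream probe the groups overlapped.

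Rpl7a, which was chosen after its values were seen, followed the same pattern. Its upstream probe had 2.14, 3.07, 3.27 and 3.26 in treated adenoma and 3.99, 3.93 and 5.12 in untreated adenoma (difference -1.87 ± 0.80, adjusted p = 0.431 in limma). The 2 downstream probes differed by 0.17 ± 0.49 and 0.36 ± 0.52, the second of them (A_52_P548790) with no saturated pixel. Rpsa, at the start codon, had 0.05, 1.82, 1.90 and 1.84 in treated adenoma and 3.08, 2.94 and 3.59 in untreated adenoma (difference -2.35 ± 1.13), whereas its downstream probe A_52_P372165 differed by -0.21 ± 0.53. The 4 Rpl29 probes differed alike, by -1.18 at the start codon and by -1.13 to -0.96 further down.

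Upstream and downstream probes were also compared across the whole array. Over 1984 RefSeq mRNAs with 2 unsaturated probes at least 200 bases apart on the genome, the difference between treated and untreated adenoma was lower at the upstream probe in 68.1%, with a median gap of -0.44 (log2). Only 7 ribosomal protein genes had such a pair, of which 4 were lower at the upstream probe, with a median gap of -0.05. Counting pairs with saturated probes as well, the upstream probe was lower in 15 of 22 ribosomal protein genes, with a median gap of -0.25. Centred over the samples, the median upstream-minus-downstream value of all genes was -0.13, -0.24, -0.20 and -0.23 in treated adenoma, 0.24, 0.25 and 0.24 in untreated adenoma, -0.11, -0.09, -0.16 and 0.30 in tumor-bearing epithelium and -0.09, -0.16, 0.16 and 0.26 in tumor-free epithelium. Treated and untreated adenoma arrays did not overlap in this measure. Its part in the lower values of upstream ribosomal protein probes was not tested.

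**Figure D3:**
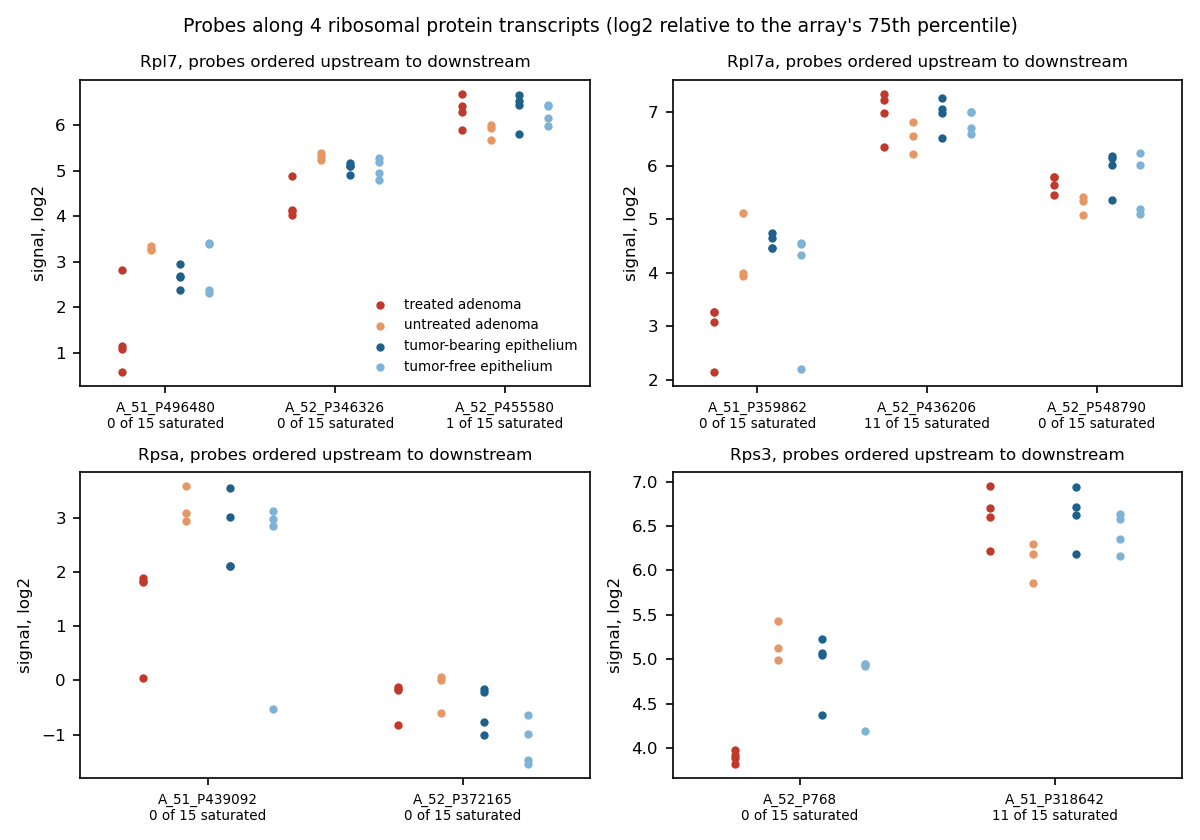
Signal on each array (vertical axes, log2 relative to the array's 75th percentile) of the probes of Rpl7, Rpl7a, Rpsa and Rps3, ordered from upstream to downstream in each transcript, 1 point an array, with the number of arrays with saturated pixels under each probe. At the upstream probes the treated adenoma arrays lie below the untreated ones (2.14 to 3.27 against 3.93 to 5.12 for Rpl7a), and at the downstream probes of Rpl7, Rpsa and Rps3 this gap is absent or turned.

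Tumor-bearing against tumor-free epithelium asks how the normal lining differs between mice with and without tumors, both labelled as given atorvastatin. None of 132 ribosomal protein probes passed, beside 0% of 24886 probes in all, and 0 had an unadjusted p under 0.05, beside 2.65% of all probes (659). The median of the 66 tested probes without saturated pixels was 0.20, with 53 above 0, beside -0.03 over all tested probes, and it lay between 0.12 and 0.21 under the 6 scalings. Leaving out tumor-bearing array 4 gave 0.40 and leaving out array 2 of that group 0.13. Leaving out tumor-free array 2 gave 0.39 and leaving out array 1 of that group 0.12. Without both arrays of the near-identical pair across the groups it was 0.31. The 3 highest by moderated t were Rpl18 (A_52_P436621) at 0.94 ± 0.51 and 2 probes of Rpl29 at 0.94 ± 0.51 and 0.75 ± 0.48. Rpl18 had 5.72, 5.26, 5.68 and 5.12 in tumor-bearing epithelium, against 3.70, 5.22 and 4.34 on the tumor-free arrays 1, 2 and 4, array 3 being flagged. The lowest by moderated t was a clone-based Rps12 probe at -1.65 ± 1.12, which was well above background on 13 of 15 arrays and stood at -7.18, -2.44, -6.33 and -1.83 in tumor-bearing epithelium, against -2.09, -2.33, -1.65 and -1.64 in tumor-free epithelium. A clone-based Rps6 probe (A_52_P531325, -0.57 ± 0.74) and Rpl4 (A_52_P376829, -0.53 ± 0.81) followed, and both overlapped between the groups. Every adjusted p in limma was 0.996 or higher. Tumor-free arrays and tumor-bearing arrays were scanned on different days, so scan day and group cannot be told apart.

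Untreated adenoma against tumor-bearing epithelium sets tumor against normal lining. None of 132 ribosomal protein probes passed, beside 8.62% of 24873 probes (1029 higher, 1116 lower), and 4 had an unadjusted p under 0.05, beside 25.8% of all probes. The median of the 66 tested probes without saturated pixels was -0.14, with 27 above 0 and 39 below. Within the 2 scan days that held both groups it was -0.35 and -0.52. Each of these days held 1 untreated array, and untreated arrays 1 and 2 are near-identical. Tumor-bearing arrays 1 and 3, on the same 2 days, are near-identical as well, so the 2 values are not independent. Over all scan days the median was -0.30 without tumor-bearing array 4 and -0.09 without tumor-bearing array 2. The number of all probes called was itself unsteady, at 497 without untreated adenoma array 3 and 4212 without tumor-bearing array 4, against 2145 with all arrays. The sign of the median over probes without saturated pixels turned with the scaling. Quantile normalization gave 0.32, the authors' deposited log2 values 0.37 and scaling to the detected probes 0.10.

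The highest by moderated t was a Rpl13 probe on a cDNA clone (A_52_P103513), with 0.46, 0.38 and 1.01 in untreated adenoma, against -1.08, -0.87, -1.37 and 0.05 in tumor-bearing epithelium (difference 1.40 ± 0.50, adjusted p = 0.115 in limma). The groups did not overlap, tumor-bearing array 4 being the closest. The 2 RefSeq probes of Rpl13 had the opposite sign, at -0.76 ± 0.49 and, with saturated pixels on 6 arrays, -0.71 ± 0.42. Rpl31 (A_51_P452820), a large subunit protein, followed with 3.63, 3.59 and 4.19 in untreated adenoma and 2.91, 2.88, 2.88 and 2.35 in tumor-bearing epithelium (difference 1.19 ± 0.46), while in treated adenoma it had 3.34, 2.40, 2.36 and 2.39. Rpl7l1 (A_52_P343343) came next, at 1.07 ± 0.48.

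The lowest by moderated t were 2 overlapping probes of Rpl36, a large subunit protein, shown here because they read nearly the same bases. They overlap by 39 bases and differ there at G36A and A37G, the first probe's base being given first, positions counted from 1 at that probe's 5′ end and the bases marked in capitals.
Rpl36 A_52_P233312 (chr17:54823633-54823692, mm7, plus strand): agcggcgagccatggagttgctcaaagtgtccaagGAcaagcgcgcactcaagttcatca
Rpl36 A_51_P361875 (chr17:54823654-54823795, mm7, plus strand): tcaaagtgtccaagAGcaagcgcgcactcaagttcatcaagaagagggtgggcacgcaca
The first had 5.72, 5.58 and 5.51 in untreated adenoma, against 7.07, 6.61, 6.85 and 6.23 in tumor-bearing epithelium, and the second had 5.45, 5.29 and 5.08, against 6.72, 6.29, 6.57 and 5.95. The differences were -1.02 ± 0.44 and -1.07 ± 0.45, with adjusted p of 0.178 and 0.173 in limma. Neither overlapped between these groups, and tumor-free epithelium, at 5.85 to 6.68 and 5.42 to 6.42, overlapped with tumor-bearing epithelium at both probes and with untreated adenoma at the second. The first had saturated pixels on 2 arrays and the second on 1. Rps27 came next at -0.93 ± 0.44. Another overlapping pair, of Rpl29, shares 33 bases and differs at C32A, A53C and G54T, counted in the same way, and is shown as a second pair that reads nearly the same bases.
Rpl29 A_52_P505977 (chr9:106160526-106160585, mm7, plus strand): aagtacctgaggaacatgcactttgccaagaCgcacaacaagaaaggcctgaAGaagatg
Rpl29 A_52_P217069 (chr9:106160553-106160612, mm7, plus strand): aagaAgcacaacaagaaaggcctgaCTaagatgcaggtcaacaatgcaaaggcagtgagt
These gave -0.03 ± 0.47 and 0.21 ± 0.48 in the same comparison and -0.96 ± 0.51 and -1.13 ± 0.53 between treated and untreated adenoma.

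Treated adenoma against tumor-bearing epithelium sets tumor under both drugs against normal lining. None of 130 ribosomal protein probes passed, beside 10.7% of 23962 probes (1286 higher, 1284 lower), and 11 had an unadjusted p under 0.05, beside 27.8% of all probes. Of these 11, 10 were among 71 tested large subunit probes and 1 among 52 tested small subunit probes. Both shares lay below that of all probes, and some genes had more than 1 probe. The median of the 64 tested probes without saturated pixels was -0.50, with 50 below 0, and it lay between -0.50 and -0.11 under the 6 scalings. Within the 2 scan days that held both groups it was -0.67 and -0.09.

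Rpl18, a large subunit protein, was the lowest by moderated t. Its probe crosses an intron, covering 343 bases of the genome.
Rpl18 A_52_P436621 (chr7:41895736-41896078, mm7, plus strand): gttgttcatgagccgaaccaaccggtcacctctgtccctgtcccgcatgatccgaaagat
It had 3.02, 3.82, 4.08 and 4.00 in treated adenoma, against 5.72, 5.26, 5.68 and 5.12 in tumor-bearing epithelium, a difference of -1.87 ± 0.57 with an adjusted p of 0.066 in limma. Rpl21 (A_52_P653937) had -0.94, -1.07, -1.04 and -0.98, against 1.25, 0.49, 1.20 and 0.31 (difference -1.66 ± 0.53, adjusted p = 0.076 in limma). Rplp0 followed at -1.88 ± 0.69 (adjusted p = 0.113 in limma). None of the 3 overlapped between these groups, but they were picked for their t, and the arrays stand for 2 and 3 samples. The highest by moderated t were clone-based probes of Rps24 (1.17 ± 0.53), Rps18 (1.65 ± 0.81) and Rps12 (2.41 ± 1.25), with adjusted p of 0.180 to 0.237 in limma. Other probes of these genes had the opposite sign in the same comparison. The unsaturated second Rps24 probe (A_52_P537084) differed by -0.72 ± 0.56, and probes with saturated pixels on 1 to 15 arrays differed by -0.18 ± 0.41 (Rps24), by -0.18 ± 0.41 and -0.13 ± 0.43 (Rps18) and by -0.09 ± 0.43 (Rps12). The clone-based Rps12 probe was well above background on 13 of 15 arrays, and tumor-bearing arrays 1 and 3, at -7.18 and -6.33, stood far below its other values.

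All adenoma against all epithelium takes the mean of both groups on each side. None of 133 ribosomal protein probes passed, beside 17.3% of 27135 probes (2089 higher, 2616 lower), and 6 had an unadjusted p under 0.05, beside 33.2% of all probes. The share of called probes in the family was below that of the array in each of the 3 comparisons of adenoma with epithelium, and 66 of its 137 probes had saturated pixels. Among the probes without saturated pixels 0 of 66, 64 and 67 were called in untreated adenoma, treated adenoma and all adenoma, beside 8.62%, 10.7% and 17.4% of such probes outside the family. Of the other genes' probes with saturated pixels on some arrays, 13.9%, 16.8% and 24.2% were called. The number of all probes called in all adenoma lay between 2604, without untreated adenoma array 3, and 7399, without tumor-bearing array 4. The median of the 67 tested probes without saturated pixels was -0.29, beside -0.10 over all tested probes. It was -0.18 without the near-identical pair of arrays across the epithelia. It turned to 0.08 under quantile normalization and to 0.09 in the authors' deposited values.

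The highest by moderated t was Rpl7l1 (A_51_P110147), a paralog of Rpl7 that in yeast has a counterpart in pre-ribosome assembly. It had 3.30, 3.14, 3.25 and 3.26 in treated adenoma and 3.17, 3.17 and 3.57 in untreated adenoma, against 2.46, 2.49, 2.51 and 2.70 in tumor-bearing and 1.98, 2.55, 2.25 and 2.26 in tumor-free epithelium. All 7 adenoma arrays lay above all 8 epithelium arrays, and the difference was 0.90 ± 0.28, or 1.87-fold, with an adjusted p of 0.053 in limma. Its upstream probe differed by 0.64 ± 0.34. The downstream probe passed under normexp background correction, quantile normalization, scaling to the detected probes, the authors' deposited values and the use of 1 probe per gene. It did not pass with scaling to the median, without the filter on dim probes, with the stricter filter or without probes with a saturated pixel. Nor did it pass without the near-identical pair across the epithelia, or with any single array left out other than tumor-bearing array 4. A probe of the gene did pass without tumor-bearing array 4 and with shared RNA as a random block.

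The clone-based Rpl13 probe differed by 1.06 ± 0.35 (adjusted p = 0.066 in limma), whereas the 2 RefSeq probes of the gene differed by -0.75 ± 0.35 and -0.45 ± 0.30. The clone-based Rps24 probe differed by 1.07 ± 0.37 (adjusted p = 0.076 in limma), and the other 2 Rps24 probes by -0.32 ± 0.40 and -0.30 ± 0.29. Rps24 had 1.17, 1.15, 1.16 and 1.15 in treated and 1.15, 1.20 and 0.75 in untreated adenoma, against -0.47, -0.30, -0.39 and 0.70 in tumor-bearing and -0.48, -0.24, 0.73 and 0.74 in tumor-free epithelium. The groups did not overlap, but untreated array 3 lay close to 3 epithelium arrays. Of the unsaturated probes on records other than RefSeq mRNAs 9 of 15 were above 0, and of those on RefSeq mRNAs 11 of 52. The lowest by moderated t were both Rpl21 probes, at -1.04 ± 0.37 (adjusted p = 0.085 in limma) and -0.86 ± 0.37, and Rpl28 at -0.93 ± 0.42.

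The paralogs of ribosomal proteins gave no called difference either. Rpl22, which binds RNA of the Epstein-Barr virus in human cells, and Rpl22l1, which can take its place, were compared as a pair. Rpl22 (A_52_P391718, unsaturated) had 3.67, 3.66, 3.61 and 3.71 in treated and 3.58, 3.54 and 3.39 in untreated adenoma, against 4.61, 4.72, 4.66 and 3.54 in tumor-bearing and 4.06, 4.82, 3.88 and 3.72 in tumor-free epithelium. The adenoma arrays lay low, but tumor-bearing array 4 lay among them, and the difference of all adenoma from all epithelium was -0.69 ± 0.36 (adjusted p = 0.208 in limma). The other Rpl22 probe, with saturated pixels on 8 arrays, differed by -0.32 ± 0.29. Rpl22l1 (A_51_P218814) differed by -0.23 ± 0.32 in the same comparison, and its second probe, well above background on 4 arrays, by 0.60 ± 0.45. Rps27l, which p53 induces in human cells, differed by -0.25 ± 0.30 and Rps27 by -0.50 ± 0.31. Rpl36al differed by -0.36 ± 0.31, the 3 Rpl36a probes by -0.28 to -0.22, and Rpl3 by -0.08 ± 0.29.

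Of the other members fixed by name, Rps6, the substrate of the S6 kinases, had 5.77, 5.14, 5.13 and 5.14 in treated and 5.79, 5.27 and 6.03 in untreated adenoma, against 6.25, 5.97, 6.11 and 5.39 in tumor-bearing and 5.76, 6.04, 5.64 and 5.01 in tumor-free epithelium, overlapping throughout (all adenoma minus all epithelium, -0.16 ± 0.33). Its clone-based probe (A_52_P531325) differed by -0.79 ± 0.58. Rps19, mutated in Diamond-Blackfan anemia in humans, differed by 0.10 ± 0.42 at its RefSeq probe and by -0.41 ± 0.34 at a clone-based one. An unsaturated clone-based Rpl11 probe differed by 0.68 ± 0.50. The 2 tested Rps2 probes differed by -0.17 ± 0.31 and -0.10 ± 0.36, Rpl10 by -0.39 ± 0.29 and -0.43 ± 0.29, and Rps27a, with tumor-free array 3 flagged and dropped, by -0.31 ± 0.30. Between treated and untreated adenoma the difference was -0.84 ± 0.65 for the Rps19 RefSeq probe, -0.56 ± 0.45 for Rpl3, -0.32 ± 0.51 for Rps6 and 0.19 ± 0.56 for the unsaturated Rpl22 probe. Between tumor-bearing and tumor-free epithelium it was 0.27 ± 0.53, 0.26 ± 0.37, 0.14 ± 0.41 and 0.07 ± 0.45 for the same 4 probes.

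The start regions of these genes were searched for runs of pyrimidines. Of the 82 gene names 61 had a start region in RefSeq (GRCm38.p6), and 33 of them (54.1%) held 6 or more C or T in a row, on the gene's strand, between 10 bases before and 20 bases after the start, beside 28.6% of all 27025 start regions. Rpl7l1, the paralog nearest to a call, is set beside 4 ribosomal proteins, 20 bases to either side of the start. Capitals mark the longest run of C or T inside the searched window, so that a run may go on outside it, as upstream in Rpl7a.
Rplp2 (chr7:141447631-141447670, GRCm38.p6, plus strand): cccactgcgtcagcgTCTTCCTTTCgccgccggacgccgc
Rps6 (chr4:86857348-86857387, GRCm38.p6, minus strand): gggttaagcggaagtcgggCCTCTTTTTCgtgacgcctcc
Rpl7a (chr2:26910787-26910826, GRCm38.p6, plus strand): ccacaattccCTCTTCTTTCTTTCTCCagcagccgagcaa
Rps27 (chr3:90213629-90213668, GRCm38.p6, minus strand): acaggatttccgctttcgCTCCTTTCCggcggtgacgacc
Rpl7l1 (chr17:46782637-46782676, GRCm38.p6, minus strand): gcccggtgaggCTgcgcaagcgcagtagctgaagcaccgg
Inside the window the runs are 10, 10, 17, 9 and 2 bases long. The median of the longest run was 6 bases over the 61 genes of the family and 4 over all start regions. The 4 ribosomal proteins shown thus lie above the family median, and a run shorter than that of Rps27 is common in the family. The arrays measure mRNA amount and not translation, so nothing about the use of these tracts was measured.

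Genes that build, load or regulate ribosomes were read from lists chosen by function. Among probes of ribosome biogenesis genes, 3 of 51 tested were higher in all adenoma than in all epithelium and 0 lower (5.88%, beside 17.3% of all probes), with a median of 0.66 and 44 of 51 above 0. Under the 6 scalings, a check added after seeing the data, this median lay between 0.65 and 0.89 and the number called higher between 3 and 10, with 0 lower. The 3 were Gnl3, a nucleolar GTPase also called nucleostemin (1.40 ± 0.37, adjusted p = 0.029), the RNA helicase Ddx21 (1.43 ± 0.39, adjusted p = 0.031) and the assembly factor Rrs1 (1.30 ± 0.38, adjusted p = 0.042, all in limma). The other Ddx21 probes, which were not called, differed by 1.38 ± 0.51 and 0.37 ± 0.92. Gnl3 had -0.50, -0.54, -0.48 and -0.49 in treated and 0.61, 0.60 and 0.22 in untreated adenoma, against -1.73, -1.85, -1.66 and -0.52 in tumor-bearing and -1.85, -1.85, -0.91 and -0.93 in tumor-free epithelium. The adenoma arrays were higher, except that tumor-bearing array 4 overlapped with treated adenoma. None of the list passed in untreated or treated adenoma taken alone against tumor-bearing epithelium, although under other scalings up to 2 passed in treated and up to 4 in untreated adenoma.

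In all adenoma against all epithelium 17.3% of all probes passed. Of 37 tested initiation factor probes 1 rose (2.70%), a probe of Eif2s1, the alpha subunit of eIF2 (1.27 ± 0.35, adjusted p = 0.034 in limma). The other Eif2s1 probe, which was not called, differed by 0.89 ± 0.32. Of 17 probes of elongation factors and other oligopyrimidine mRNAs 1 rose (5.88%), a probe of the poly(A)-binding protein Pabpc1 (1.54 ± 0.40, adjusted p = 0.027 in limma). The second Pabpc1 probe, with saturated pixels on 5 arrays, differed by -0.02 ± 0.30. Of 29 tested probes of S6 kinases and genes that control oligopyrimidine mRNA translation, 3 were higher in all adenoma and 0 lower (10.3%), with a median of 0.06. Among the 3 were 2 probes of Rps6kb1, the mTOR-activated kinase of Rps6 (1.06 ± 0.27 and 1.20 ± 0.36, adjusted p = 0.023 and 0.046 in limma), and 1 of Rps6kl1. The other tested Rps6kb1 probes differed by 0.06 ± 0.32 and 1.08 ± 0.68. Rps6kb1 (A_51_P175205) had 1.98, 1.70, 1.66 and 1.73 in treated and 1.63, 1.62 and 1.80 in untreated adenoma, against 0.50, 0.66, 0.56 and 0.74 in tumor-bearing and 0.68, 0.83, 0.90 and 0.77 in tumor-free epithelium, with no overlap.

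A probe of Rps6kl1, a kinase-like relative of the S6 kinases, had 1.97, 2.51, 2.44 and 2.50 in treated and 1.34, 1.41 and 0.97 in untreated adenoma, against -6.77, -3.34, -7.52 and -7.11 in tumor-bearing and -3.63, -3.15, -5.61 and -5.62 in tumor-free epithelium. It passed in treated and in untreated adenoma over tumor-bearing epithelium (adjusted p = 0.0018 and 0.0049 in limma). There it was the only probe of its list called, of 23 and 29 tested (4.35% and 3.45%, beside 10.7% and 8.62% of all probes). In all adenoma over all epithelium it passed as well (adjusted p = 0.00041 in limma). Only 1 of the 4 tumor-bearing arrays was well above background, so the fitted differences of 8.09 ± 1.12 and 7.04 ± 1.12 are not measured folds. Its second probe (A_52_P545705) stood between -6.83 and -5.16 on all arrays and was well above background on 8 of them. The 2 probes of the gene therefore disagree.

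Mitochondrial ribosomal proteins, which serve the separate ribosome of that organelle, had 1 of 117 tested probes higher and 0 lower in treated adenoma than in tumor-bearing epithelium (0.855%, beside 10.7% of all probes), and 2 of 120 higher and 0 lower in all adenoma than in all epithelium (1.67%, beside 17.3%). The first, called in both, was a dim Mrpl33 probe, at least 2.23-fold higher in treated adenoma (adjusted p = 0.018 in limma), as it was not well above background on any tumor-bearing array. Its brighter second probe differed by -0.14 ± 0.48. The second was a probe of Mrpl38 (1.32 ± 0.37), whose other probes differed by -0.12 ± 0.33 and 0.44 ± 0.77. The median of these probes was -0.43 between treated and untreated adenoma, beside -0.36 for the cytosolic probes without saturated pixels. Most of these calls rested on few samples. Untreated adenoma array 3 and treated adenoma array 1 are each 1 of the 2 samples of their group, so leaving either out leaves 1. Without untreated adenoma array 3, every call named for all adenoma against all epithelium in these lists, leaving Rps6kl1 aside, was lost. Without treated adenoma array 1 those of Gnl3, Ddx21, Rrs1, Eif2s1, Rps6kb1 and Mrpl38 were lost. The Mrpl33 call in treated adenoma was also lost without treated adenoma array 1, and the Rps6kl1 call in untreated adenoma without untreated adenoma array 3. The values of these arrays and the smaller group cannot be told apart as the source of these losses. No probe of any of these lists passed between treated and untreated adenoma or between the 2 epithelia.

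**Figure D4:**
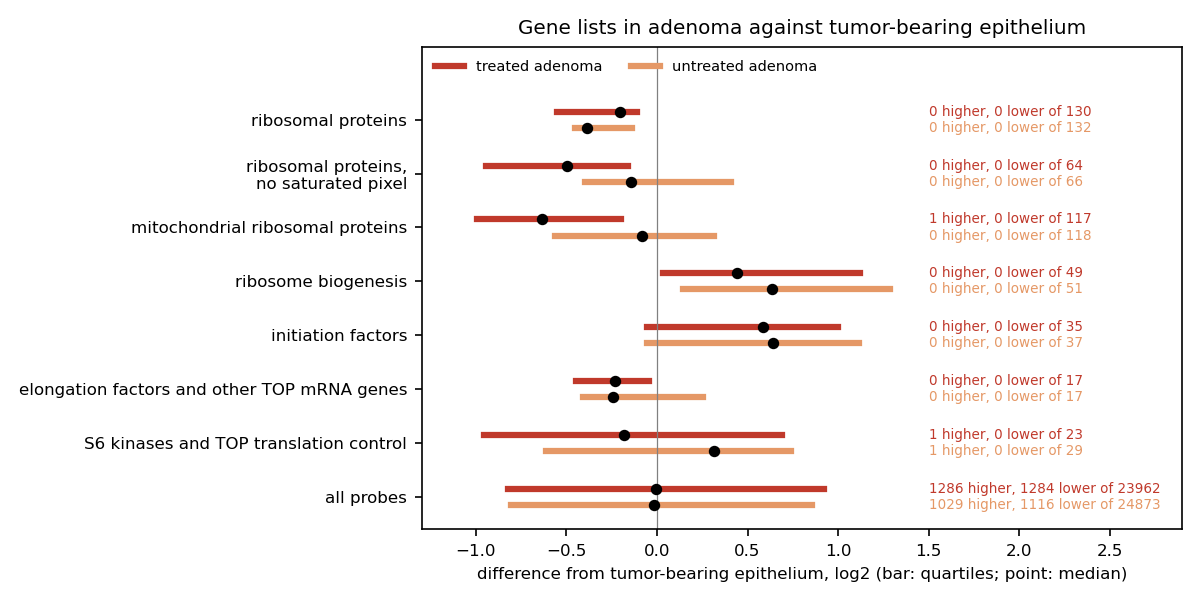
Differences of adenoma from tumor-bearing epithelium (horizontal axis, log2) for ribosomal proteins and related gene lists, treated adenoma above untreated adenoma in each row; bars span the quartiles, points are medians and the numbers count probes past an adjusted p of 0.05. The medians of ribosome biogenesis and initiation factor probes lie to the right of 0, under each of the 6 scalings, with single probes on either side. Those of ribosomal protein probes lie to the left with this scaling. They turned under some of the other scalings, except for probes without saturated pixels in treated adenoma, whose median stayed below 0 under all 6. Few probes of any list passed.

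The position of the family relative to 0 depended on how the arrays were scaled. Over all tested ribosomal protein probes, the median in untreated adenoma against tumor-bearing epithelium was -0.39 with the 75th percentile, 0.07 after quantile normalization and 0.10 in the authors' deposited values. Relative to the median of all tested probes these were -0.37, -0.03 and 0.00 (the last of them -0.0007). In all adenoma against all epithelium the median was -0.27, 0.06 and 0.04 under the same 3 settings. Scaling to the probes detected on all arrays moved the median of all tested probes itself, to 0.23 in untreated adenoma and 0.24 in treated adenoma against tumor-bearing epithelium and to 0.12 in all adenoma, and the family stood at -0.37, -0.20 and -0.17 relative to it, as with the 75th percentile of all probes. In treated against untreated adenoma the family median was 0.13 with the 75th percentile, -0.02 after quantile normalization and -0.08 in the authors' values. No direction of the family as a whole is therefore given.

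**Figure D5:**
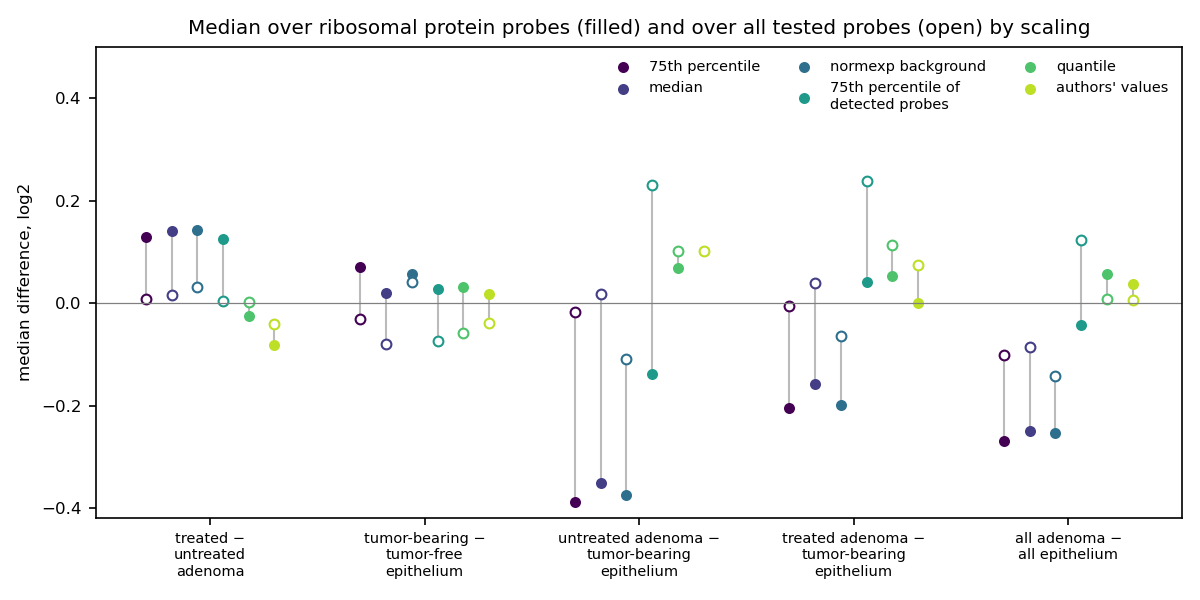
Median difference (vertical axis, log2) over the tested ribosomal protein probes (filled) and over all tested probes (open) in the 5 comparisons under 6 ways of scaling the arrays. In untreated adenoma minus tumor-bearing epithelium the family median runs from -0.39 with the 75th percentile to 0.10 in the authors' values, crossing 0.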

How the data were processed

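RNA of laser-microdissected colon cells (10 ng, amplified in 2 linear rounds, Cy3) was hybridised to 15 Agilent arrays, per the labels' protocols. The deposited intensity values were made with Agilent Feature Extraction 9.5.3, per the file headers, which subtracts background and detrends within the array; saturation and outlier flags and pixel counts come from the same files. The authors' value table holds log2 values that share 1 distribution across arrays; how they were normalized was not given in the sources used. Outlier spots were dropped, repeated spots of a probe averaged, and levels expressed as log2 intensity relative to the 75th percentile of non-control probes on each array. Near-identical arrays were averaged, and 10 samples were fitted in limma 3.58.1 (R 4.3.3) with all 4 groups sharing 1 spread (6 residual and 3.79 prior degrees of freedom). Testing required at least 1 of the groups compared to have the probe well above background on all its arrays; p-values were adjusted by Benjamini-Hochberg over all tested probes. Members and lists were chosen with earlier results of these data known. Named in each comparison were the 3 probes with the highest and the 3 with the lowest moderated t, besides a set of members fixed by name and up to 3 called probes a list. Arrays carry no counting depth, and their number limits the precision. The script was tested on simulated data. Alternatives covered background correction, scaling, filters, blocks and left-out arrays. Replicate numbers were not taken as pairs.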

Additional observations from a re-analysis of the deposited data

How the results depend on the processing

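No ribosomal protein probe passed between tumor-bearing and tumor-free epithelium under any setting that gave a value. With near-identical arrays averaged, few passed elsewhere. In all adenoma against all epithelium 2 passed under normexp background correction, 1 after quantile normalization, 1 when scaled to probes detected on all arrays, 2 in the authors' values, 1 with 1 probe per gene name and 3 with shared RNA as a random block; Rpl7l1 was among them each time. In untreated adenoma against tumor-bearing epithelium 1 passed in the authors' values (Rpl31), and in treated adenoma against tumor-bearing epithelium 2 with the random block (Rpl18, Rpl21). The 4 columns of the authors' table named for tumor-bearing arrays matched other arrays of that group better than their own and were set under the arrays they matched.

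Counting every array as its own sample gave 6 probes in treated against untreated adenoma, 18 in untreated adenoma against tumor-bearing epithelium, 31 in treated adenoma against it and 18 in all adenoma, beside 3141, 8762, 9546 and 11665 of all probes. On separate arrays, scan date as a block gave 10, 24 and 18 for the first 3 of these and no value for the others, since 2 dates held tumor-free arrays alone; slide as a random block gave 7, 22, 23 and 20; the replicate block gave 9, 18, 30 and 19. Whether replicate numbers pair the arrays could not be decided. Same-numbered arrays had a median correlation of deviations of 0.066 (-0.31 to 0.55), against -0.026 (-0.53 to 0.43) for others. These correlations are not independent, since near-identical arrays are among them. All of these count near-identical arrays as separate.

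The family median turned to 0.0681 under quantile normalization and 0.101 in the authors' values in untreated adenoma against tumor-bearing epithelium, and to 0.0573 and 0.0382 in all adenoma against all epithelium. Without probes with a saturated pixel, a setting chosen after seeing the data, it was -0.36 in treated against untreated adenoma and -0.50 in treated adenoma against tumor-bearing epithelium, a median over fewer probes by construction. The cause of the other shifts was not tested. Over the 19 settings that left out 1 array or a near-identical set, 0 to 0 probes passed in treated against untreated adenoma and between the epithelia, 0 to 1 in each adenoma against tumor-bearing epithelium and 0 to 3 in all adenoma. Without tumor-free array 1, Rplp0 passed in treated adenoma against tumor-bearing epithelium; without tumor-bearing array 4, Rpl13 passed in untreated adenoma and 3 (Rpl13, Rpl7l1, Rps24) in all adenoma; without tumor-free arrays 3 and 4, 1 (Rps24) passed in all adenoma. Family medians ranged from -0.0449 to 0.292 in treated against untreated adenoma, -0.0601 to 0.264 between the epithelia, -0.588 to -0.242 in untreated and -0.440 to -0.0586 in treated adenoma against tumor-bearing epithelium and -0.385 to -0.157 in all adenoma.

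Among all probes, the 35 calls between treated and untreated adenoma were 11 without the filter on dim probes, 0 with the stricter one, 15 when scaled to detected probes, 12 without saturated probes, 1 without the near-identical arrays across the epithelia and 56 with the random block. Leaving out 1 array or a near-identical set gave 1 to 44. In treated adenoma against tumor-bearing epithelium the 2570 calls were 931 without treated adenoma array 1 and 4408 without tumor-bearing array 4.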
